A study of Homo sapiens with 60 samples.

Results

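Transcript levels were compared between HT29 cells given a low dose of processed aconite root and HT29 cells given the same low dose of bupleurum root. HT29 is an established human colorectal adenocarcinoma cell line. The comparison comprised 6 of the series' 60 libraries, 3 per group, chosen by their labels, and covered all 16485 genes that passed the count filter. Both groups received a lyophilised hot-water extract for 24 h at 20 µg/mL. The extract was Aconiti Lateralis Radix Preparata (called aconite) in one group and Bupleuri Radix (called bupleurum) in the other. The same extracts were also given at a medium dose of 100 µg/mL and a high dose of 500 µg/mL, with 3 libraries per group. These are the doses on the labels. The design text says that extracts inhibiting growth by 20% below 500 µg/mL were given at lower concentrations, and the labels do not show whether this applied here. Vehicle libraries (3) received 0.1% DMSO per the sample labels, whereas the series' design text gives 2%. The labels do not state whether the replicates of a group were grown apart, and the p-values therefore reflect library-to-library spread that could be partly or wholly technical.

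Both herbs are old remedies of East Asian medicine and each extract is a mixture of many plant compounds. Among the routes by which plant compounds reach the genome of a gut epithelial cell is the aryl hydrocarbon receptor (AhR), a transcription factor that binds flat aromatic ligands and switches on cytochrome P450 genes together with its own feedback inhibitors. A separate route, NF-kB, answers microbial products and cytokines and induces chemokines, the secreted proteins that draw leukocytes to the mucosa. The CXCL chemokine genes named here lie in a cluster on chromosome 4.

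The 6 libraries held 21.45 to 32.1 M counts each, with a median of 28.42 M. Their deviations from their own group means (root mean square, log2 scale) ran from 0.059 to 0.096, against 0.058 to 0.318 in the 51 other replicated libraries. All 11 colon epithelial markers were detected, with a summed level of 12100 to 13200 CPM (counts per M on scaled totals) after aconite and 12300 to 12500 CPM after bupleurum. Defining markers of T cells (CD3D, CD3E, CD2) and macrophages (C1QA, C1QB, CD163) were at 0 in all 6 libraries. LYZ, which encodes lysozyme, made up most of the macrophage list at 1620 CPM. Without it that list summed to 11.6 to 13.5 CPM, and 0 of its 3 tested members passed the test. No list of T-cell, B-cell, fibroblast, endothelial or neuronal markers (0 called) exceeded a sum of 2.82 CPM. The signal-recognition RNA RN7SL2, a measure of short non-coding RNA in the library, ran from 46.7 to 118 CPM in the 6 libraries and from 4.94 to 9.32 CPM in vehicle.

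The groups differed at few genes, and every difference that passed was an elevation after aconite. By edgeR's quasi-likelihood test with Benjamini-Hochberg adjustment, 21 of 16485 genes (0.127%) passed an adjusted p of 0.05. All 21 were higher with aconite and 0 were lower. At an unadjusted p under 0.05, 240 genes were higher and 195 lower, and DESeq2 called 20 higher and 0 lower. In each of the 21 genes, all aconite libraries lay above all bupleurum libraries. That ordering held in 4.68% of all tested genes, and the opposite ordering in 4.71%. For the called genes it is largely implied by the call, which rests on the same libraries. The log2 fold changes of the 21 genes ran from 0.28 to 4.69 with a median of 0.92, and 10 were at least 1. The median over all tested genes was 0.00.

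**Figure D1:**
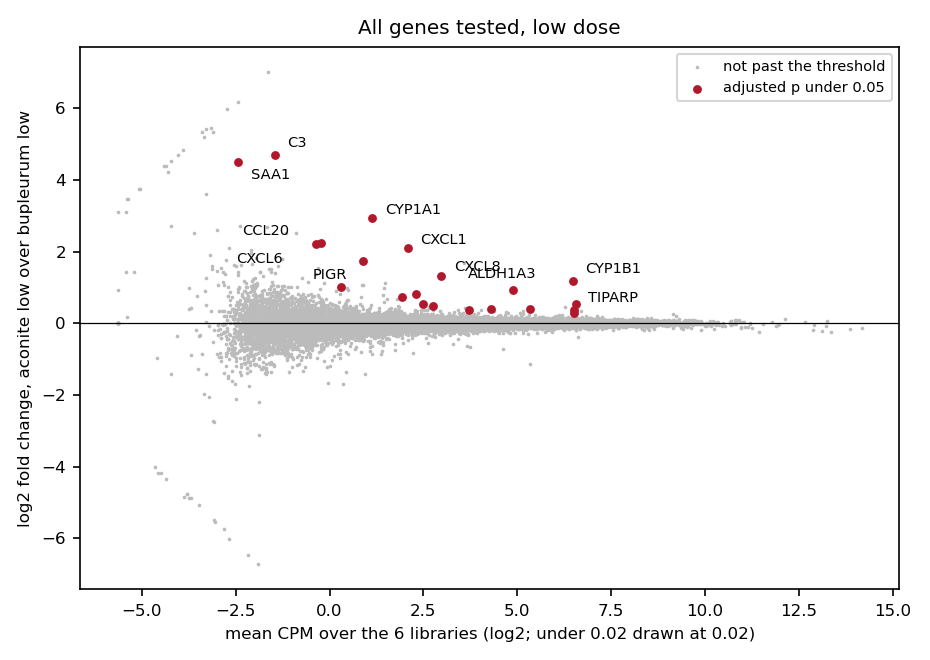
Log2 fold change of aconite low over bupleurum low for every tested gene (vertical axis) against the mean CPM of the 6 libraries on a log2 scale (horizontal axis). Red points are the 21 genes past an adjusted p of 0.05; they all lie above 0, and most grey points of large fold change are genes of very few counts.

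AhR targets were 1 of the groups with called members. The list of AhR targets had 10 members, 9 of them tested, and 4 rose: CYP1A1, CYP1B1, ALDH1A3 and TIPARP. The other 5 did not pass. The list's median log2 fold change was 0.30, and all 9 values were above 0. Over all tested genes, 0.127% rose and 50.1% had a value above 0.

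CYP1A1 encodes the cytochrome P450 that oxidises polycyclic aromatic compounds and is the textbook reporter of AhR activation. Its level was 6.04, 2.26 and 3.42 CPM in the aconite libraries and 0.564, 0.402 and 0.571 CPM in the bupleurum libraries. The lowest aconite library thus stood well above the highest bupleurum library, although the aconite libraries differed among themselves more than the bupleurum libraries did. The log2 fold change was 2.93 ± 0.29 (SE), a 7.62-fold difference (adjusted p = 2.15e-09). With a mean log2 CPM of 0.43 it is a low-abundance transcript in these cells.

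CYP1B1, a related P450 that also hydroxylates estradiol, was far more abundant in counts. The aconite libraries held 160, 104 and 109 CPM and the bupleurum libraries 57.5, 55.1 and 52.7 CPM. Here too replicate 1 was the highest aconite library, and the groups did not overlap. The log2 fold change was 1.18 ± 0.09 (adjusted p = 1.68e-12), or 2.26-fold. The annotated antisense gene CYP1B1-AS1 overlaps CYP1B1 on the opposite strand of chromosome 2, and rose as well, by 0.74 ± 0.16 (adjusted p = 0.04). The libraries were directional, but the strand setting of the counting is not given in the sources used here, so the reads of the overlapping genes cannot be told apart.

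ALDH1A3 encodes a dehydrogenase that turns retinal into retinoic acid. It was measured at 44.8, 34.0 and 38.1 CPM after aconite and at 20.2, 21.1 and 20.3 CPM after bupleurum, a log2 fold change of 0.92 ± 0.07 (adjusted p = 2.87e-12). TIPARP encodes a mono-ADP-ribosyltransferase that dampens AhR signalling. It was measured at 125, 99.7 and 110 CPM against 74.4, 75.7 and 80.4 CPM, a log2 fold change of 0.54 ± 0.07 (adjusted p = 1.99e-06). In both genes the bupleurum libraries were tightly grouped and the aconite libraries were all higher.

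The remaining tested AhR targets had smaller values. ALDH3A1, an aldehyde dehydrogenase of barrier tissues, was at 27.6, 28.1 and 30.1 CPM after aconite and 24.4, 22.9 and 22.4 CPM after bupleurum (log2 fold change 0.30 ± 0.08, adjusted p = 0.371). AHRR, the AhR repressor, was at 5.36 ± 0.0792 CPM (SD, n = 3) against 4.46 ± 0.24 CPM, with a log2 fold change of 0.27 ± 0.14. Neither gene's groups overlapped, yet neither passed over all genes. UGT1A6, NQO1 and NFE2L2 had log2 fold changes of 0.14 ± 0.09, 0.07 ± 0.09 and 0.06 ± 0.05. CYP1A2, the remaining member, was below the filter with 0 to 1 counts per library.

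To set the AhR binding core beside these values, the bases before the annotated start were read for the genes of this list that rose. Those that the RefSeq promoter table (GRCh38.p14) holds are CYP1A1 (chr15:74725529-74725628, minus strand), ALDH1A3 (chr15:100879631-100879830, plus strand) and TIPARP (chr3:156674380-156674589, plus strand). Where a gene had several listed starts, the start with the most matches was taken, here and in the later stretches. TIPARP held matches only at the start shown. Each stretch runs 5′ to 3′ and ends 1 base before the start. Capitals mark GCGTG, or CACGC where the core lies on the other strand.
CYP1A1: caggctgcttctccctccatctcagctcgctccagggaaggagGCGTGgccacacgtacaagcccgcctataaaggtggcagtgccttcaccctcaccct
ALDH1A3: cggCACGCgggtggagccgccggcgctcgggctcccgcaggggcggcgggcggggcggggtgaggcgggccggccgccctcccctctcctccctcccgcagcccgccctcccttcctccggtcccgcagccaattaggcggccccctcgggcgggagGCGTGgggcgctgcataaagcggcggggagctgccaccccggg
TIPARP: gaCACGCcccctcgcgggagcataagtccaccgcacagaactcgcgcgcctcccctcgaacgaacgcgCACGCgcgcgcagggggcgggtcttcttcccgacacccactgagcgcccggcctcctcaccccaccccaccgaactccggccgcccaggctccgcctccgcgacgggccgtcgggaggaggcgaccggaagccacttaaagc
CYP1A1 held 1 match in this stretch, ALDH1A3 2 and TIPARP 2. The core is short and common. It occurred in the 250 bases before the start in 32.2% of all 35116 promoters of the table, and in 9 of the 22 promoters that the table lists for 17 of the called genes. A match is a description of the letters only.

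Chemokines were the other. Of 18 tested members of the NF-kB and chemokine list (20 in all), 6 rose: CXCL1, CXCL3, CXCL6, CXCL8, CCL20 and SAA1. The other 12 did not pass. All 18 log2 fold changes were above 0, with a median of 0.41, and 12 had an unadjusted p under 0.05. These counts include SAA1, CXCL5 and CXCL6, whose bupleurum low libraries were under the count filter. They passed that filter through groups where they were higher, so their values add no support to the counts. Over all 16485 tested genes, 0.127% rose, 50.1% were above 0 and 435 genes had such a p. CXCL3, CXCL6, CCL20 and SAA1 were under the abundance minimum of the naming rule and were named after their values were seen.

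CXCL1 attracts neutrophils through the receptor CXCR2. It was at 6.57, 6.98 and 7.03 CPM after aconite and at 1.76, 1.68 and 1.32 CPM after bupleurum. Both groups were tight and far apart, and the log2 fold change was 2.10 ± 0.16, or 4.3-fold, with the smallest adjusted p of the comparison (4.99e-13). CXCL8, interleukin-8, was at 11, 10.7 and 12.1 CPM against 4.33, 4.36 and 4.78 CPM. Its log2 fold change was 1.33 ± 0.17 (adjusted p = 3.67e-06).

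The less abundant chemokines moved the same way. CXCL6 was at 1.03, 1.31 and 1.48 CPM after aconite and 0.188, 0.235 and 0.393 CPM after bupleurum (log2 fold change 2.21 ± 0.32, adjusted p = 3.48e-05). CCL20, which attracts CCR6-bearing lymphocytes and dendritic cells, was at 1.21, 1.35 and 1.67 CPM against 0.0941, 0.302 and 0.5 CPM (2.24 ± 0.37, adjusted p = 0.000404). CXCL3 was at 1.88, 1.49 and 1.62 CPM against 0.721, 1.04 and 0.714 CPM (1.01 ± 0.23, adjusted p = 0.0418). No aconite library of these genes reached down to a bupleurum library. The bupleurum libraries of CXCL6 were all under the count filter, which the gene passed through groups where it was higher. RSEM shares reads among near-identical genes, so the split between CXCL1, CXCL2 and CXCL3 is less certain than their direction.

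SAA1 and C3 had at most 1 count in each bupleurum library. SAA1 encodes the acute-phase protein serum amyloid A. It had 11, 10 and 7 counts in the aconite libraries and 1, 0 and 0 in the bupleurum libraries. The ratio, corrected for library size, was 32.5 with an exact 95% counting interval of 5.38 to 1330 (adjusted p of the fit 0.00516). C3, the central complement component and no member of the list, was likewise named after its values were seen. It had 14, 23 and 17 counts against 1, 1 and 0, a ratio of 31.4 with an interval of 8.27 to 266 (adjusted p of the fit 2.32e-05). The bupleurum libraries were under the count filter for both genes, which passed it through groups where they were higher. The intervals cover counting error only, and the fitted fold changes of these genes depend on the prior count.

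Members of the list that did not pass included the intracellular regulators. NFKBIA, the inhibitor that is itself an NF-kB target, was at 23.8, 23.3 and 24.7 CPM after aconite and 23.2, 23.1 and 22.9 CPM after bupleurum (log2 fold change 0.05 ± 0.08). NFKB1, NFKB2, RELB and IRAK2 lay between 0.08 and 0.15. The adhesion molecule ICAM1 (0.37 ± 0.10), the ubiquitin ligase BIRC3 (0.43 ± 0.12) and the antimicrobial siderophore binder LCN2 (0.34 ± 0.08) were larger, at adjusted p of 0.313, 0.371 and 0.137. LCN2 was the only gene that DESeq2 called and edgeR did not. CXCL2, TNFAIP3 and TNFAIP2 had log2 fold changes of 0.82 ± 0.29, 0.39 ± 0.20 and 0.20 ± 0.07. CXCL5 had no bupleurum count and a mean of 0.0482 CPM after aconite, too few for a fold. TNF and IL1A, with at most 3 counts in any library, were not tested.

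**Figure D2:**
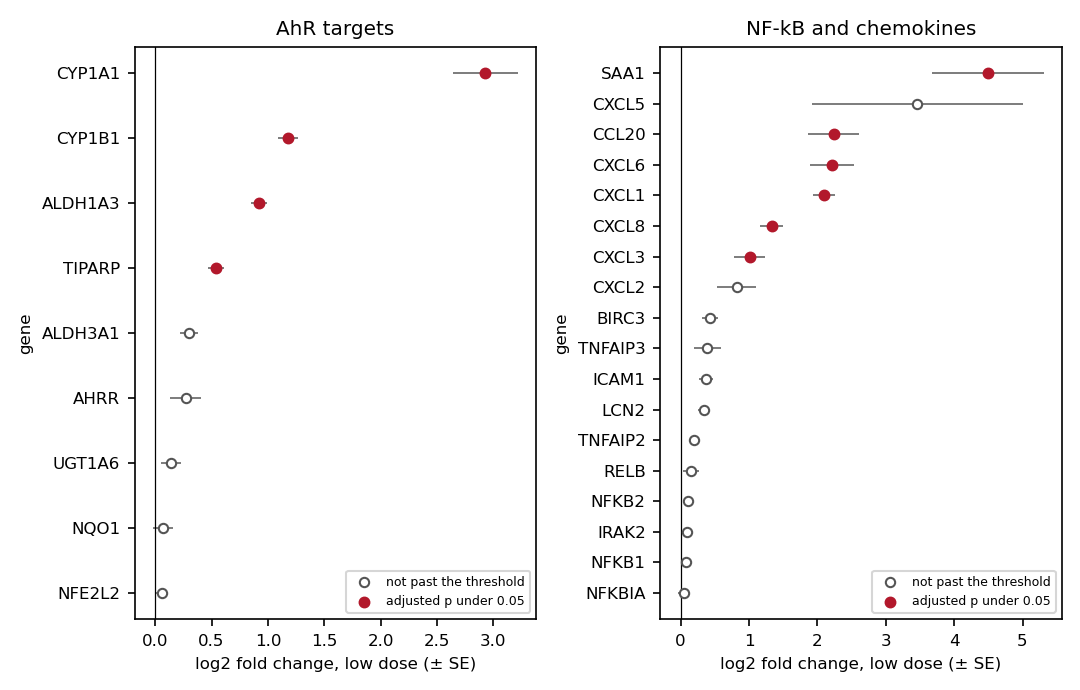
Log2 fold change of aconite low over bupleurum low with its standard error for each tested member of the AhR target list (left, 9 genes) and the NF-kB and chemokine list (right, 18 genes). Filled red points passed an adjusted p of 0.05 (4 and 6 genes); all points lie above 0, and NFKBIA and NFE2L2 lie closest to it.

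Of the 5 chemokine genes that rose, 4 hold the same short sequence before their start, and it is shown for that reason. The NF-kB motif GGAATTTCC was searched on both strands after the values had been seen. The stretches below, 5′ to 3′ and ending 1 base before the RefSeq start on GRCh38.p14, show it in capitals for CXCL1 (chr4:73869273-73869392, plus strand), CXCL6 (chr4:73836558-73836677, plus strand), CXCL8 (chr4:73740419-73740568, plus strand) and CXCL3 (chr4:74038690-74038809, minus strand).
CXCL1: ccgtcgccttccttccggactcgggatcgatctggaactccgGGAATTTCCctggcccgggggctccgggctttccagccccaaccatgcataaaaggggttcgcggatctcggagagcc
CXCL6: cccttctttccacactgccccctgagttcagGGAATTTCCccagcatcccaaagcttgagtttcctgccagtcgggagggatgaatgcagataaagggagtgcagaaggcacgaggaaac
CXCL8: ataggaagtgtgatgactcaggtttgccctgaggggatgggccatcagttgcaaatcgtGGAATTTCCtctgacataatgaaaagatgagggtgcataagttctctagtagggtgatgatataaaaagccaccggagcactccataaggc
CXCL3: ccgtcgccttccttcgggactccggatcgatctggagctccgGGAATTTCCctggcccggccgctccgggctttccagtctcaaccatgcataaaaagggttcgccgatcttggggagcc
The motif began 78 bases before the start in CXCL1 and CXCL3, 89 bases before it in CXCL6 and 91 bases before it in CXCL8. It occurred in 0.413% of all 35116 promoters (145) and in these 4 of the 22 promoters listed for 17 called genes. The 4 genes belong to 1 cluster, and the stretches of CXCL1 and CXCL3 are nearly identical, so these promoters are not independent. The shares are a description of the letters only. CCL20 and PIGR, also in the table, did not hold these exact letters in the window. CXCL8 was also the only called gene with the AP-1 motif TGANTCA (6.57% of all promoters), 137 to 131 bases before its start. The antioxidant response element TGACNNNGC (10.9% of all promoters) and the E-box CACGTG (6.34%) matched 1 called gene each, ST3GAL4 in both cases, and the ATF4 motif TGATGNAA (3.14%) matched 0.

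Outside both lists 11 genes rose, among them C3 and CYP1B1-AS1. PIGR carries immunoglobulin A across the epithelium and was named after its values were seen, being of low abundance. It was at 2.59, 2.84 and 3.15 CPM after aconite and 0.972, 0.771 and 0.785 CPM after bupleurum, a log2 fold change of 1.75 ± 0.19 (adjusted p = 1.59e-08). PI3, the elastase inhibitor elafin, was at 6.78, 5.96 and 5.97 CPM against 3.92, 3.42 and 3.36 CPM (0.81 ± 0.16, adjusted p = 0.0086). The groups of both genes were well separated.

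EREG, the epidermal growth factor receptor ligand epiregulin, was at 118, 94.2 and 94.3 CPM after aconite and 78.7, 80.9 and 78.2 CPM after bupleurum (0.37 ± 0.07, adjusted p = 0.00266). PTGS2, inducible cyclooxygenase, was at 25.2, 20.8 and 21.8 CPM against 15.9, 18 and 17.7 CPM (0.40 ± 0.09, adjusted p = 0.0289). The survival kinase PIM1 was at 16.4, 14.9 and 13.6 CPM against 11.4, 11.5 and 11.7 CPM (0.38 ± 0.08, adjusted p = 0.0114). These were modest elevations of 1.29- to 1.32-fold that rested on small spreads. ITGB7, the integrin beta 7 chain (0.55 ± 0.10, adjusted p = 0.00226), the pro-apoptotic BMF (0.48 ± 0.11, adjusted p = 0.04), the adhesion receptor ADGRF1 (0.39 ± 0.08, adjusted p = 0.0172) and the sialyltransferase ST3GAL4 (0.28 ± 0.06, adjusted p = 0.04) completed the set.

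Not all of the 21 calls were equally secure. In 13 of them replicate 1 was the highest aconite library, against 32.9% of all tested genes. Without both replicate 1 libraries, 9 calls remained, and without any single one of the 6 libraries 12 to 19 remained. With no count filter 76 genes passed, 48 higher and 28 lower, and a fit restricted to the 6 libraries called 11, all higher. Under every alternative that tested them, 9 genes kept their call: CYP1A1, CYP1B1, ALDH1A3, TIPARP, CXCL1, CXCL6, CXCL8, PIGR and C3. C3 and CXCL6 reached no more than 0.0335 and 0.393 CPM in the bupleurum low libraries and met the count filter through groups with higher levels. Their calls therefore add no support to that number. The calls of SAA1, CYP1B1-AS1, CXCL3, ITGB7, EREG, PI3, PIM1, ADGRF1, PTGS2, BMF and ST3GAL4 were each lost without at least 1 library.

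**Figure D3:**
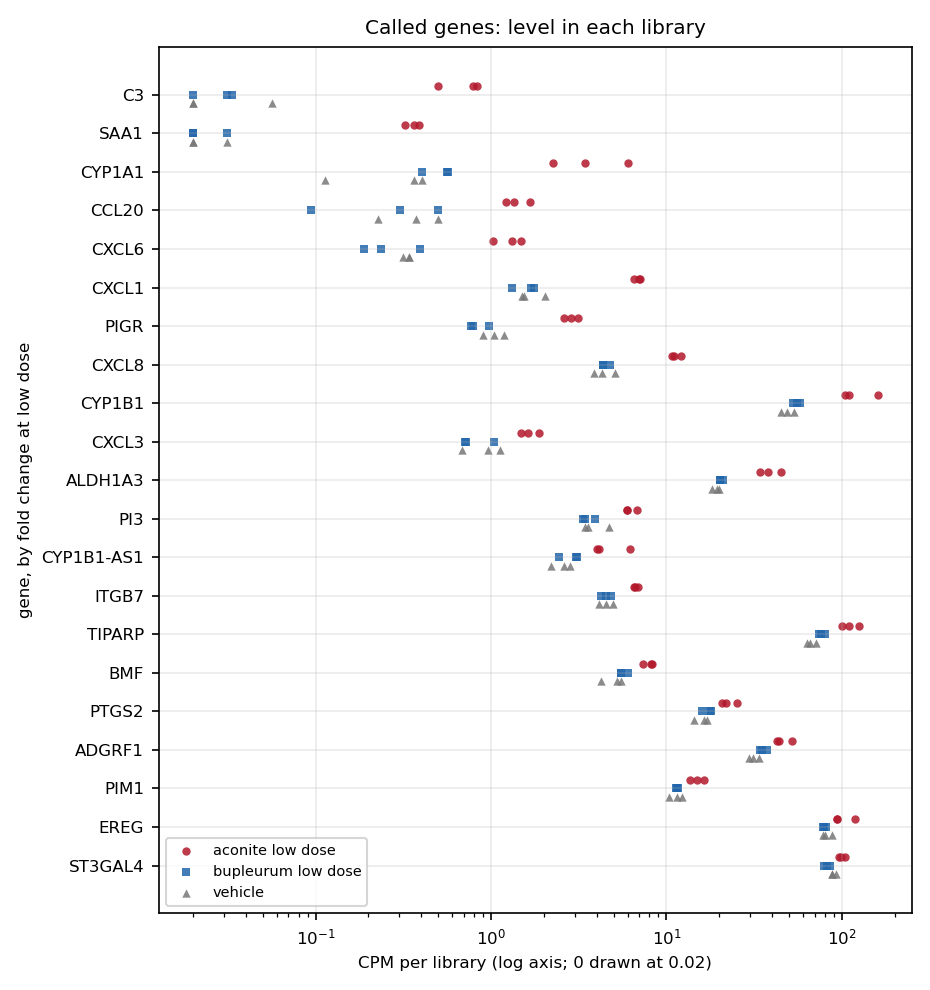
Level in CPM (log axis, libraries with 0 drawn at 0.02) of the 21 called genes in each of 3 aconite low, 3 bupleurum low and 3 vehicle libraries, ordered by fold change. In every gene the red aconite points lie to the right of all bupleurum and vehicle points. The genes were called from the aconite and bupleurum libraries drawn here.

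The vehicle libraries gave the background for both groups. They carry another library code series (B1) than the extracts compared here (6), so code series and treatment cannot be told apart in this step, and both comparisons share the same vehicle libraries. The 21 genes had been called from the same aconite and bupleurum low libraries. Their values over vehicle are therefore partly set by that choice and add no support to the calls. Against vehicle, 265 genes passed for aconite low (1.61%; 115 higher, 0.698%, and 150 lower, 0.91%) and 131 for bupleurum low (0.795%; 68 higher, 0.412%, and 63 lower, 0.382%). For the 21 genes, the log2 fold changes over vehicle were 0.16 to 5.21 for aconite, with 19 called higher (18 without vehicle replicate 1, EREG being lost). The upper end is C3, whose vehicle libraries held at most 0.0565 CPM, and whose value rose to 7.1 without vehicle replicate 1. They were -0.36 to 0.67 for bupleurum, with 0 called (adjusted p from 0.187 to 0.987). All 3 aconite libraries lay above all bupleurum and all vehicle libraries in each of the 21 genes. CXCL1, for instance, was at 2.03, 1.5 and 1.54 CPM in vehicle, CYP1B1 at 45.1, 48.9 and 53.4 CPM, and ALDH1A3 at 18.1, 19.5 and 19.8 CPM, levels close to those after bupleurum. The 2 genes not called for aconite over vehicle were CXCL3 (0.83, adjusted p = 0.0512) and ST3GAL4 (0.16, adjusted p = 0.226).

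The same contrast at higher doses, in libraries not shared with the low dose, extended the pattern. At the medium dose 258 genes passed (1.57%; 158 higher, 0.958%, and 100 lower, 0.607%). At the high dose 1624 passed (9.85%; 973 higher, 5.9%, and 651 lower, 3.95%). Of the 21 genes, 20 were called higher at the medium dose (12.7% of its higher calls), all but SAA1. At the high dose 20 were also called higher (2.06% of its higher calls), all but PIGR. The fold change was larger at the medium than at the low dose in 17 of the 21, and larger at the high than at the low dose in 16.

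CYP1A1 showed the steepest change with dose. After aconite it was at 88.0, 93.5 and 97.6 CPM at the medium dose and 95.1, 105 and 104 CPM at the high dose. After bupleurum it was at 1.07, 0.509 and 0.907 CPM and at 3.9, 3.74 and 3.92 CPM. The difference between the herbs was therefore widest at the medium dose, with a log2 fold change of 6.77 ± 0.21, compared with 4.72 ± 0.17 at the high dose. CYP1B1 (1.18, 2.52 and 1.81 at low, medium and high dose), ALDH1A3 (0.92, 2.11 and 1.43) and TIPARP (0.54, 1.05 and 0.91) had the same order. Mean bupleurum levels at medium and high dose were 69.7 and 98.8 CPM (CYP1B1), 23.9 and 28.1 (ALDH1A3), and 87.0 and 101 (TIPARP). The aconite means were 399 and 346, 103 and 76.2, and 180 and 191 CPM, respectively. Of the 5 called chemokines, 4 had their largest value at the high dose. CXCL1 had log2 fold changes of 2.10, 2.94 and 3.25, CXCL8 of 1.33, 1.73 and 2.39, CCL20 of 2.24, 3.03 and 3.71, and CXCL3 of 1.01, 1.31 and 1.62. CXCL6, with 2.21, 1.66 and 2.05, had its largest value at the low dose. Aconite high replicate 2 stood apart not only in chemokines, deviating from its group mean by 0.318 beside 0.182 and 0.156 in replicates 1 and 3. Its CXCL8 was at 57.2 CPM beside 24.6 and 31.0 CPM in the other high-dose aconite libraries. Without this library the high-dose log2 fold changes were 3.04 for CXCL1, 1.98 for CXCL8 and 3.41 for CCL20. Whether the medium and high doses differed from each other was not tested.

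A direct test of the change in fold between doses called 21 of all genes for medium against low (0.127%; 19 larger at the medium dose, 0.115%, and 2 smaller, 0.0121%), of which 7 were among the 21 low-dose genes, all with a larger fold at the medium dose. They were the AhR targets CYP1A1, CYP1B1, ALDH1A3 and TIPARP, together with PIM1, ADGRF1 and ST3GAL4. For high against low, 296 genes passed (1.8%; 166 larger, 1.01%, and 130 smaller, 0.789%), with 10 of the 21 larger at the high dose. CXCL1 and CXCL8 were among these 10, and remained so without aconite high replicate 2, whereas TIPARP and ST3GAL4 did not. The 1 gene of the 21 that passed with a smaller fold at the high dose was PIGR, its log2 fold change falling from 1.75 to 0.17 (adjusted p of the difference 0.000162). PIGR after aconite was at 2.99, 2.8 and 3.73 CPM at the medium dose and 1.49, 1.24 and 1.49 CPM at the high dose, while bupleurum libraries stayed between 0.771 and 1.34 CPM at all doses.

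**Figure D4:**
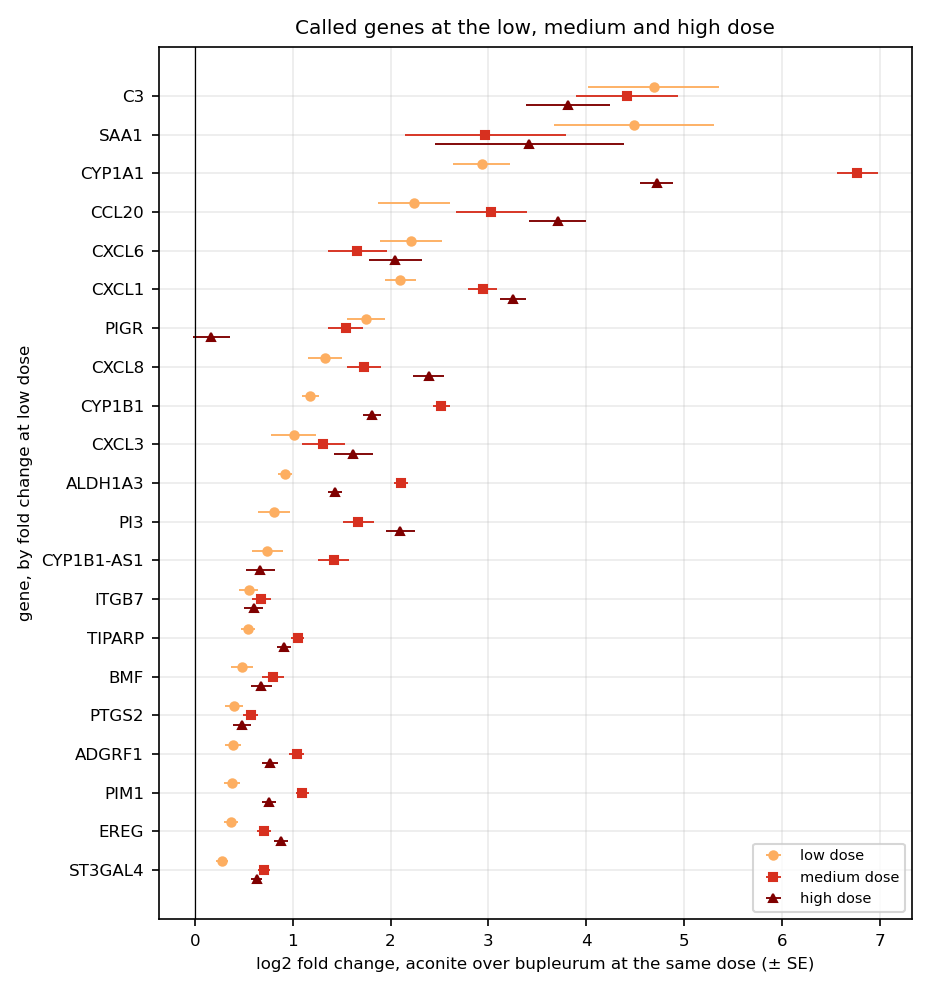
Log2 fold change of aconite over bupleurum with its standard error at the low (20 µg/mL), medium (100 µg/mL) and high (500 µg/mL) dose for the 21 genes called at the low dose. AhR targets such as CYP1A1 are farthest right at the medium dose (6.77), CXCL1 and CXCL8 at the high dose, and PIGR returns close to 0 at the high dose.

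Genes called at the medium dose were mostly displaced the same way at the low dose without passing there. Of the 158 genes higher at the medium dose, 144 (91.1%) had a positive log2 fold change at the low dose, where 50.1% of all genes did. In 80 of them (50.6%) the low-dose groups did not overlap, against 4.68% of all genes. Leaving out the 20 genes called at both doses, 124 of 138 were positive, with a median of 0.11. Of the 100 genes lower at the medium dose, 86 were negative at the low dose (median -0.09), where 49.7% of all genes were, and 0 of them were called. Genes called at the high dose were displaced less: 72.6% of the 973 higher genes were positive at the low dose (median 0.04) and 69.1% of the 651 lower genes were negative (median -0.04).

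**Figure D5:**
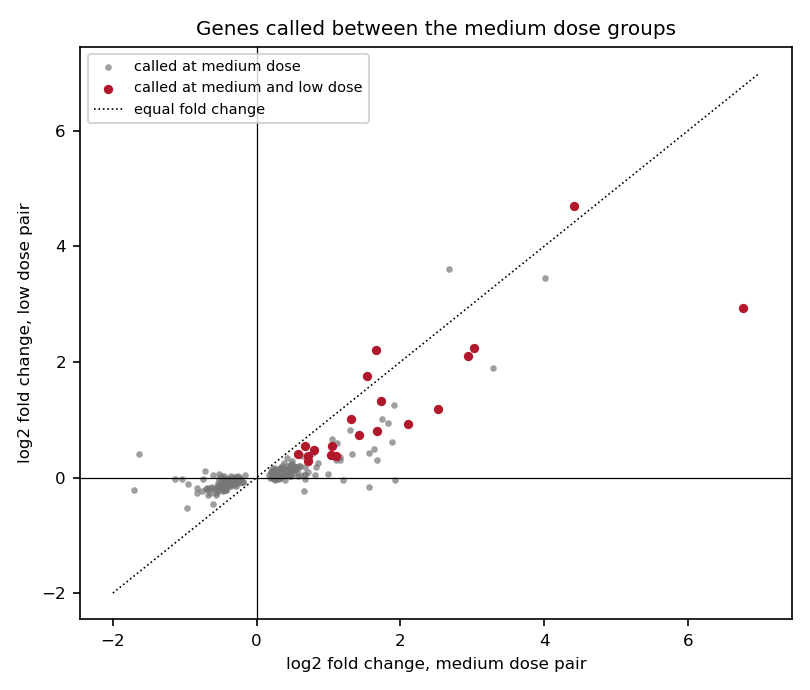
Log2 fold change of aconite over bupleurum at the low dose (vertical axis) against that at the medium dose (horizontal axis) for the 258 genes called at the medium dose, with the dotted line marking equal fold changes. The points spread along the diagonal direction but most lie nearer to 0 at the low dose; the 20 red points were called at both doses.

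Of the 38 gene lists, 36 had 0 called members at the low dose by edgeR, and among those with at least 5 tested genes the medians ran from -0.10 to 0.17. Some of these lists had called members at the higher doses. The NRF2 list, genes of the antioxidant response, had 0 of 25 called by edgeR at the low dose (2 at an unadjusted p under 0.05, median 0.05), 16 higher at the medium dose and 20 higher at the high dose. Of all tested genes, 0.958% were higher at the medium dose and 5.9% at the high dose. TXNRD1, thioredoxin reductase, was at 409, 380 and 420 CPM after aconite and 350, 367 and 364 CPM after bupleurum (0.16 ± 0.05). HMOX1, heme oxygenase, was at 8.61 ± 0.647 CPM (SD, n = 3) against 8.41 ± 0.383 CPM (0.04 ± 0.09). The TXNRD1 groups did not overlap, whereas those of HMOX1 did.

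The interferon response list had 0 of 27 called (4 at an unadjusted p under 0.05), although 26 of its log2 fold changes were above 0 and the median was 0.17. Of all 16485 tested genes, 435 had such a p and 50.1% were above 0. MX1, an antiviral GTPase, was at 10.9, 17.9 and 13.0 CPM after aconite and 10.1, 9.42 and 11.8 CPM after bupleurum, and its groups overlapped. Its log2 fold change was 0.42 ± 0.18 at the low dose, 0.56 at the medium dose and -0.15 at the high dose. OAS1, an antiviral RNA sensor, had a likewise small value (0.25 ± 0.10) and was not called at any dose.

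Transcripts of the mitochondrial genome were slightly lower after aconite without passing. The list had 0 of 13 called (0 at an unadjusted p under 0.05) and a median of -0.10 at the low dose, 0 called and -0.41 at the medium dose, and 11 lower with a median of -1.14 at the high dose. Of all tested genes, 3.95% were lower at the high dose. MT-CO3, a subunit of cytochrome oxidase, was at 16600, 13800 and 11500 CPM after aconite and 16000, 14800 and 16400 CPM after bupleurum, so the low-dose groups overlapped. Beside this, aconite replicate 3 had the lowest mitochondrial share of the 6 libraries (7.41%) and a rank correlation of its deviation with exon length of -0.38, whose part in the result was not tested. That share also counts the mitochondrial ribosomal RNAs, which the list does not hold, and at the high dose it went the other way, with 16.6%, 15.8% and 14% after aconite and 9.67%, 8.79% and 10.0% after bupleurum. The ribosomal RNAs MT-RNR1 and MT-RNR2, named after their values were seen, had log2 fold changes of -0.16 and -0.24 at the low dose, not called, and of 4.59 and 3.18 at the high dose, both called higher. The glucose-sensing MondoA targets TXNIP (-0.19 ± 0.08) and ARRDC4 (-0.20 ± 0.10) were not called at the low dose, and both were lower at the medium dose (-0.83 and -0.62) and the high dose (-1.56 and -0.92). The list had 4 tested members and did not move as a whole. ARRDC3 and KLF10, also members, were not called at the low or medium dose. Both were called higher at the high dose (0.48 and 0.17). ATF4 targets had 0 of 24 called at the low, 3 at the medium and 22 higher at the high dose. Beside these, 0.958% of all tested genes were higher at the medium dose and 5.9% at the high dose.

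No gene was called higher after bupleurum. Among genes with a mean log2 CPM of at least 1 and no overlap between the groups, those with the smallest unadjusted p in that direction were as follows. FAM172A was at 13.6, 13.8 and 12.7 CPM after aconite and 16.1, 15.2 and 15.8 CPM after bupleurum (log2 fold change -0.23 ± 0.07, adjusted p = 0.558). NEURL1, a ubiquitin ligase, was at 3.52, 3.49 and 3.75 CPM against 4.86, 4.96 and 4.96 CPM (-0.46 ± 0.14, adjusted p = 0.662). CCDC170 (-0.56 ± 0.17), the chemokine receptor CXCR4 (-0.27 ± 0.08) and the ephrin receptor EPHB3 (-0.26 ± 0.08) followed. Of these 5 genes, NEURL1 and EPHB3 were called lower after aconite at both higher doses (NEURL1 -0.61 and -0.93, EPHB3 -0.57 and -0.89). The 9 further genes named by the rule, FLYWCH1, CNTD1, FILIP1L, TRAPPC1, TTC31, SIGLEC15, TCTN1, RCN3 and F3, had log2 fold changes from -0.61 to -0.17 and adjusted p of 1. Among these 9, FILIP1L was called lower after aconite at both higher doses (-0.57 and -0.86) and SIGLEC15 at the high dose only (-0.86). The rest were not called at either higher dose.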

How the data were processed

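The authors deposited a single table of estimated counts from RSEM, genes in rows, with no normalization that the values show. Of 270 columns, 60 matched labels by name and 210 were not used. STAR 2.7.3a and RSEM 1.3.3, with GRCh38, are named per the submitters' processing notes; the annotation version is not given in the sources used here. Counts were rounded (8.68% were not whole), filtered with filterByExpr by group and scaled by TMM. Group means were then modelled by the quasi-likelihood method of edgeR 4.0.16 (R 4.3.3) over 57 libraries in 19 groups, so that groups shared the spread (biological coefficient of variation 8%). P-values were adjusted over all genes within each of 7 comparisons. The code was tested on simulated data. CPM use TMM-scaled totals. An SE was obtained from each log2 fold change and its F statistic (size of the change over root F).

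Named genes were the 14 largest rises and falls past the threshold, given a mean log2 CPM no lower than 1, no overlap and no clone, pseudogene, antisense or read-through name, filled by smallest unadjusted p; up to 4 members per described list; and CYP1A1, CYP1B1, HMOX1, NQO1 and markers. A gene that this rule names is not reported here. Further members of the AhR and NF-kB lists, the low-abundance calls and the NF-kB motif were added after values were seen. The comparison and the lists were chosen with earlier results of these data known. Symbols were matched for 56558 of 60675 identifiers, and promoters from RefSeq on GRCh38.p14. Replicates numbered alike deviated together (r over 0.1 for every pair) at the medium dose (r 0.33, 0.43 and 0.17) but not at the low dose (0.22, -0.09 and 0.35) or the high dose. Alternatives were DESeq2 1.42.0, other scaling, no filter, fewer groups, a replicate block, a fold minimum and leaving out libraries.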

Additional observations from a re-analysis of the deposited data

Results flagged for a closer look

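The fold difference between aconite and bupleurum itself changed with dose at 12 of the 21 genes called at the low dose. Of all 16485 tested genes, 21 (0.127%) passed for medium against low and 296 (1.8%) for high against low. Each value below is the log2 fold change at the higher dose minus that at the low dose, tested by edgeR with Benjamini-Hochberg adjustment over all genes, and drew attention because that difference passed. The doses do not share libraries, and no explanation was tested.

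From low to medium dose the fold difference widened at 7 genes. The increase was 3.84 for CYP1A1 (adjusted p = 2.11e-06), 1.34 for CYP1B1 (1.04e-09), 1.18 for ALDH1A3 (8.24e-11) and 0.51 for TIPARP (0.00556). PIM1 widened by 0.73 (4.08e-05), ADGRF1 by 0.65 (0.00119) and ST3GAL4 by 0.44 (0.00924).

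From low to high dose the same 4 AhR targets widened less, by 1.79 for CYP1A1 (adjusted p = 0.00812), 0.63 for CYP1B1 (0.00183), 0.51 for ALDH1A3 (0.00173) and 0.37 for TIPARP (0.028). The elastase inhibitor PI3 widened by 1.29 (0.000117), CXCL1 by 1.15 (0.000555), CXCL8 by 1.06 (0.00594) and EREG by 0.51 (0.000426). PIM1 widened by 0.38 (0.0391) and ST3GAL4 by 0.36 (0.0137). Without aconite high replicate 2, TIPARP and ST3GAL4 no longer passed (adjusted p = 0.0699 and 0.0956 by the same edgeR test). PIGR, the immunoglobulin transporter, was the only one of the 21 genes that passed with a narrower difference, at -1.58 (0.000162).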

How the results depend on the processing

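All 21 calls were higher after aconite under every alternative in which they were tested, with direction unchanged. These alternatives reuse libraries that gave the calls, so an unchanged direction is largely implied and adds no support. The count of 21 was 21 with RLE scaling, 20 with DESeq2 and 15 with an absolute log2 fold change of at least 0.5. It was 76 with no count filter (48 higher, 28 lower), 11 in a fit restricted to both compared groups, 12 with only the 18 libraries of code series 6, and 12 to 19 with 1 library left out. Alternatives chosen after seeing the data gave 26 without 4 libraries of other groups that stand apart (ALDH3A1, ICAM1, LCN2 and TNFAIP2 then also passed), 17 among genes of at least 1 CPM, and 9 without replicate 1 of both groups. AhR targets kept at least 4 calls throughout, and chemokine and NF-kB genes 3 to 9. NFE2L2, not called, changed sign without aconite low replicate 1 (its log2 fold change was -0.0048 to 0.12 with 1 library left out).

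Restricting each fit to its compared groups gave 71 calls at the medium dose, 117 at the high dose, 11 for medium minus low, 92 for high minus low, 80 for aconite low against vehicle and 80 for bupleurum low against vehicle. With no filter, medium minus low gave 89, high minus low 445, aconite low against vehicle 676 and bupleurum low against vehicle 615. Leaving out 1 library gave 170 to 344 calls at the medium dose, 893 to 3074 at the high dose (3074 without aconite high replicate 1, 2727 without aconite high replicate 3), 11 to 23 for medium minus low, 218 to 451 for high minus low, 78 to 240 for aconite low against vehicle and 32 to 77 for bupleurum low against vehicle. The cause of these changes in count was not tested. With the replicate number as a block, the low-dose count was 20 and the medium-dose count 307. Of the 21 genes only CXCL3 lost its low-dose call under the block, and no call of theirs changed in the other 6 comparisons. Numbers alike do not pair the low-dose libraries by the check, so this is not read as a weaker effect.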

Other observations

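At the low dose, the formula Banhasasim-tang (another mixture in the series, with another library code series) also had high chemokine levels, with CXCL1 at 28.5, 27.6 and 29 CPM, CXCL8 at 28.5, 27.3 and 27.0 CPM, C3 at 1.95, 1.86 and 1.81 CPM and PIGR at 5.25, 6.89 and 7.85 CPM. These levels lay above those of all aconite low libraries. Among AhR targets, its CYP1A1 was at 0.295, 0.559 and 0.139 CPM, CYP1B1 at 53.1, 58.3 and 49.8 CPM and ALDH1A3 at 17, 20.0 and 20.9 CPM, all below the aconite low libraries, whereas AHRR was at 5.72, 5.5 and 5.35 CPM, close to aconite low (5.27 to 5.42 CPM). In the low-dose libraries of citrus peel, cimicifuga and the formula Yijung-tang, CXCL1 ran from 0.856 to 1.78 CPM, CXCL8 from 3.42 to 5.04 CPM, CYP1A1 from 0.43 to 1.0 CPM and CYP1B1 from 50.1 to 60.1 CPM. The values are given as a description, since these groups were not compared here by a test.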
